A study of Drosophila melanogaster with 3 samples.

Results

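Segment polarity genes pattern each segment of the *Drosophila* embryo, and many of them act in or on Hedgehog signalling. The 8 genes described here were chosen by symbol: *hh*, *ptc*, *smo*, *ci*, *en*, *inv*, *gsb* and *gsb-n*. They were looked up in chromatin immunoprecipitation with sequencing (ChIP-seq) data for zf30C, a zinc finger protein. All 8 were found among the 13945 protein-coding genes annotated on the 6 main chromosome arms. Within these genes and up to 5 kb outside them lay 117 of the 30000 summits in the authors' pooled region list.

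There was 1 group with 3 biological replicates, zf30C-GFP embryos. Per the labels they were whole embryos of both sexes, 0 to 24 h old, from 1 transgenic line carrying zf30C with GFP joined to its C-terminal end, and the chromatin was sonicated to 200 to 800 bp. The labels contradict each other, since zf30C is given as the antibody while a free-text line describes the libraries as input control; they are treated here as immunoprecipitated because the accompanying notes pair each with another alignment as control. No control library and no other condition was analysed here, so no difference between groups could be tested. Whole embryos of all stages were pooled, so binding in few cells and weak binding in many cannot be told apart.

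Hedgehog is a secreted ligand. It binds Patched, which otherwise holds the membrane protein Smoothened inactive, and active Smoothened turns the Gli-type zinc finger factor Cubitus interruptus into an activator. In the embryonic ectoderm the homeodomain factors Engrailed and Invected mark the posterior cells of each segment, where *en* activity promotes *hh* expression. *ptc* is both the receptor gene and a classic target of the pathway. The neighbouring genes *gsb* and *gsb-n* encode Pax factors, and *gsb* takes part in maintaining *wingless* in the cells that receive Hedgehog.

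The 3567 highest summits of the pooled list made up the authors' final list, which they filtered on the irreproducible discovery rate (IDR), an estimate of the chance that a region's rank does not recur from replicate to replicate. A summit of that list is called a peak here. Signal is the value the authors deposited with each region, in a unit that the sources used here do not give, so the replicates are compared by rank, with 1 the highest of 30000. A rank is that of the highest region of a replicate that overlaps the peak's region. A replicate is said to support a peak if that rank is within 3567. Peaks had pooled signals from 193.0 to 12466, with a median of 332. Read counts were not in the lists, so the depth is unknown and no interval is given on a signal.

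Of the 8 genes, 6 had a peak in their window (the gene and 5 kb on each side), against 31.4% of all protein-coding genes. Since long windows catch more peaks, the share was also taken among the 5287 genes whose windows were within the members' range of 12680 to 45231 bp, and it was 38.8%. The genes without a peak were *en* and *gsb-n*. At least 2 peaks were found for 5 members, against 12.1% of all protein-coding genes and 16.3% of those with windows of like length. *en* adjoins *inv*, and *gsb* adjoins *gsb-n*, so the 8 windows are not independent. The median of each gene's highest signal was 488 for the members, 148 for the genes of like window length and 118 for all genes.

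The 18 peaks in the 8 windows lay unevenly among the genes. The windows of the ligand, receptor, transducer and effector genes *hh*, *ptc*, *smo* and *ci* held 15 of them, with highest signals from 683 to 949. The windows of the homeodomain and Pax factor genes *en*, *inv*, *gsb* and *gsb-n* held 3, with highest signals from 94.2 to 293. Many of these peaks lay in the flanks. Inside the genes were 3 in *hh*, 2 in *ptc*, 1 in *ci* and 1 in *inv*. The highest signal inside *smo* was 85.3 and inside *ci* 304. No test was made of the difference between the windows, since summits of neighbouring or overlapping regions share their source.

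**Figure D1:**
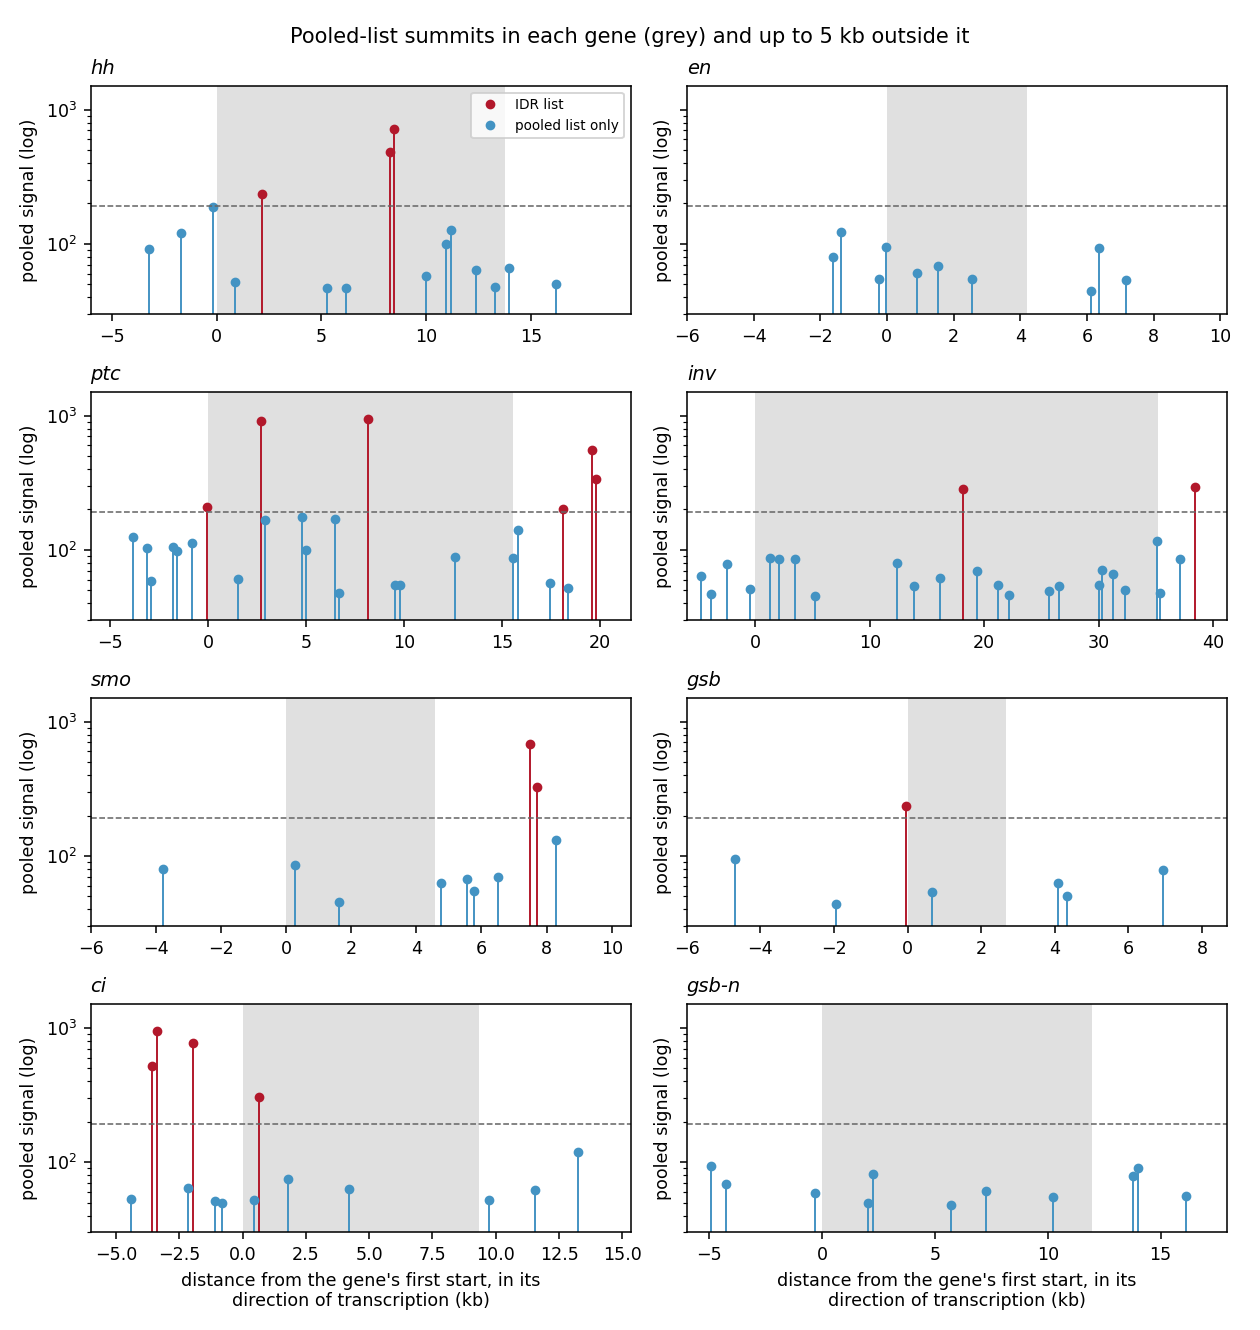
Each panel plots the pooled-list summits of 1 gene by distance from its first start along the direction of transcription (x, kb) and by pooled signal (y, log scale); grey marks the gene, red its peaks, blue the other summits and the dashed line the lowest signal of the IDR list, 193.0. The *ptc* window has 6 peaks, that of *ci* has 4 and that of *hh* has 3, while those of *en* and *gsb-n* have none.

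The ligand gene *hh* (FBgn0004644; dm6, 3R, 23128169 to 23141906, minus strand) carried 3 peaks, all in the first intron of its 1 annotated transcript. The highest, with a pooled signal of 719, lay 8458 bp downstream of the start, in the region 23133256 to 23133772. It ranked 693, 809 and 693 in replicates 1, 2 and 3, where its region had signals of 393, 166 and 167 on scales that differ between lists. All 3 replicates thus placed this intronic site in a narrow range of ranks. A second summit in the same region, 8259 bp from the start, had a signal of 483.

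The third *hh* peak lay 2165 bp from the start, at 23139643 to 23139831, with a signal of 236. Its ranks were 2528, 3851 and 5928 in replicates 1 to 3, so only replicate 1 placed it within 3567. It was the only one of the 18 peaks with the support of a single replicate. The *hh* promoter was not a peak but stood just outside the list: its summit, 185 bp upstream of the start, had a signal of 187 and pooled rank 3782, with ranks of 3690, 4151 and 4598 in the replicates. Of the 99 member summits below the list, this one had the highest signal.

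The receptor gene *ptc* (FBgn0003892; 2R, 8649649 to 8665223, plus strand) had the most peaks of the 8 genes, 6 in its window, and 86 protein-coding genes, *ptc* included, had as many or more. Its highest peaks were both in the first intron. The peak 8140 bp downstream of the start (8657434 to 8658042) had a signal of 941 and ranks of 541, 525 and 415 in replicates 1 to 3. The peak 2720 bp downstream (8652163 to 8652582) had a signal of 910 and ranks of 496, 641 and 544. These 2 sites had close ranks in every replicate, and their rank ranges overlapped. The annotated start nearest to each was that of the non-coding gene lncRNA:CR44281, which lies inside *ptc*.

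A weaker peak lay at the *ptc* promoter, 54 bp upstream of the start (8649375 to 8649814), with a signal of 208. Its ranks were 3079, 6464 and 2243 in replicates 1 to 3, so replicate 2 did not support it. Between the intronic peaks and on either side of them, further *ptc* summits stayed below the list, the highest of them 4806 bp and 6471 bp downstream of the start with signals of 177 and 170. The promoter peak was therefore lower than both intronic peaks in the pooled list and in each replicate.

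The other 3 peaks of the *ptc* window lay beyond its end, in introns of *Acsl*, which encodes a long-chain acyl-CoA synthetase. Their positions were 2552, 4034 and 4233 bp past the end of *ptc*, and their signals 203, 553 and 340. The peak with a signal of 203 had ranks of 10596, 2236 and 1754, the widest spread between replicates among the 18 peaks. The peak with a signal of 553 had ranks of 762, 1661 and 1297. Which gene these sites act on, if any, is not given by the region lists.

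*smo* (FBgn0003444; 2L, 277582 to 282167, plus strand), which encodes the membrane transducer of the pathway, had no peak inside it. The 2 peaks of its window were downstream, 2908 and 3108 bp past its end, within CG3625 and closest to a start of that gene. The higher, at 284912 to 285234, was intronic, 651 bp downstream of the CG3625 start, with a signal of 683. It ranked 797, 836 and 658 in replicates 1 to 3, with signals of 351, 161 and 174. The lower, at 285160 to 285409, lay 451 bp from that start and had a signal of 324.

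Within *smo* itself the highest summit was 277 bp downstream of its start, with a signal of 85.3. It ranked 14171, 13930 and 16718 in replicates 1 to 3. All 3 replicates placed the *smo* promoter far below the peaks in CG3625, so *smo* counts among the genes with a peak only through its neighbour. In an alternative, each peak was given only to the gene with the nearest start, and only if it lay in that gene's window. Of the members, 5 then kept a peak and *smo* did not. The *inv* peak with a signal of 293 was nearest to the start of *en* but outside the *en* window, so it counted for neither. By that rule *hh* kept only its peak with a signal of 236 and *ptc* only its promoter peak with a signal of 208. The share of all genes with a peak was not taken by that rule.

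The effector gene *ci* (FBgn0004859; chromosome 4, 47710 to 57041, minus strand) had 4 peaks, each supported by all 3 replicates. The strongest peak of the whole set lay 3359 bp upstream of its first start, at 60214 to 60750, with a signal of 949 and pooled rank 500. It ranked 509, 392 and 747 in replicates 1 to 3, with signals of 501, 298 and 157. A second summit of that region, 3559 bp upstream, had a signal of 517. Another summit, 1946 bp upstream (58766 to 59248), had a signal of 764 and ranks of 934, 470 and 541.

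These 3 upstream summits lay within the antisense non-coding gene asRNA:CR43957, in its exons or an intron, and the *ci* start was the nearest annotated start to each. ChIP signal does not carry a strand, so the lists cannot assign the sites to *ci* or to the antisense gene. The fourth peak, 60 bp upstream of the second *ci* start and inside the first exon of the longer transcript, had a signal of 304 (56171 to 56610). Its ranks were 2708, 1483 and 2090. The upstream sites were higher than this promoter site in the pooled list and in each replicate.

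Sequences around 6 of these peaks are shown because they include the highest site of *hh*, of CG3625 and of *ci*. In *hh* and CG3625 they set a peak without any of the 6-mers marked in capitals beside one that holds them, and both *ci* peaks are without them. They give the plus strand of Release 6, the assembly that dm6 denotes, 5′ to 3′, from 50 bp before to 50 bp after the summit. Capitals mark bases of the 6-mer ACACTG, the 6-mer AGTGTA, the 6-mer CACTGA or the 6-mer CAGTGC, or of a reverse complement of these.
hh intron, 8458 bp from the start, chr3R:23133398-23133498: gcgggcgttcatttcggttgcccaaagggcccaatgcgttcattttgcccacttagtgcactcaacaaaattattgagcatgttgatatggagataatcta
hh intron, 2165 bp from the start, chr3R:23139691-23139791: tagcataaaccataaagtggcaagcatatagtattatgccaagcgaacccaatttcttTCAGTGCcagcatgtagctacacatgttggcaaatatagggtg
CG3625 intron, 651 bp from its start, chr2L:285025-285125: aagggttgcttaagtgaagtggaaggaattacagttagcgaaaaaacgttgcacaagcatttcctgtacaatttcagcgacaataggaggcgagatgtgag
CG3625, 451 bp from its start, chr2L:285225-285325: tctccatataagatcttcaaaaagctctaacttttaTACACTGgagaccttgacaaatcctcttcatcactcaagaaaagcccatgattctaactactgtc
ci upstream, 1946 bp from the start, chr4:58937-59037: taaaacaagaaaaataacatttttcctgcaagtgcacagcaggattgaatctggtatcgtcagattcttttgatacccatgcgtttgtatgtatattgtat
ci upstream, 3359 bp from the start, chr4:60350-60450: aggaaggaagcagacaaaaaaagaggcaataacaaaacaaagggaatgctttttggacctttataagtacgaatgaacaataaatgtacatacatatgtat

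The 6-mers were scored at the 3549 peaks outside the member windows by the number of peaks with the 6-mer at the summit minus that in the flanks, divided by the square root of the flank number plus 1. The 4 highest were used, a search chosen after the data were seen; the difference alone or the ratio alone gives another order. ACACTG, for example, was within 50 bp of the summit in 19.9% of those peaks and in 5.40% of flanks of the same length. The 4 overlap one another as pieces of longer runs. Among the member peaks, 5 of 18, or 27.8%, held 1 or more of them within 50 bp, against 41.9% of the other peaks. In flanks the shares were 8.33% for the members and 16.7% for the other peaks.

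The member peaks with such a match were *hh* at 2165 bp, *ptc* at 2720 bp, the CG3625 site with a signal of 324, the intronic *inv* peak and the *gsb* promoter. Of the 10 member peaks above the list's median signal, 1 held a match, the *ptc* site. Of the 8 at or below the median, 4 did. The other peaks were not split by signal, so whether the members differ from them in this was not tested. The highest sites of *hh*, of CG3625 and upstream of *ci* held none of the 6-mers used. This depends on where the ordered 6-mers were cut. AGTGCA and GTGCAC, at places 7 and 10 of the same order, were in the highest *hh* site and the *ci* site 1946 bp upstream. Neither was in the highest site of CG3625 or of *ci*. At the other peaks AGTGCA was in 17.0%, against 8.72% of flanks, and GTGCAC in 7.89%, against 3.21%. GAAAAA, at place 9, was in the highest site of CG3625 and the *ci* site 1946 bp upstream. ACTGAG, at place 5, was at the second summit of the highest *ci* region, 3559 bp upstream. At the other peaks GAAAAA was in 32.1%, against 20.2% of flanks, and ACTGAG in 11.2%, against 4.10%. A match is a run of letters and does not show contact with zf30C.

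**Figure D2:**
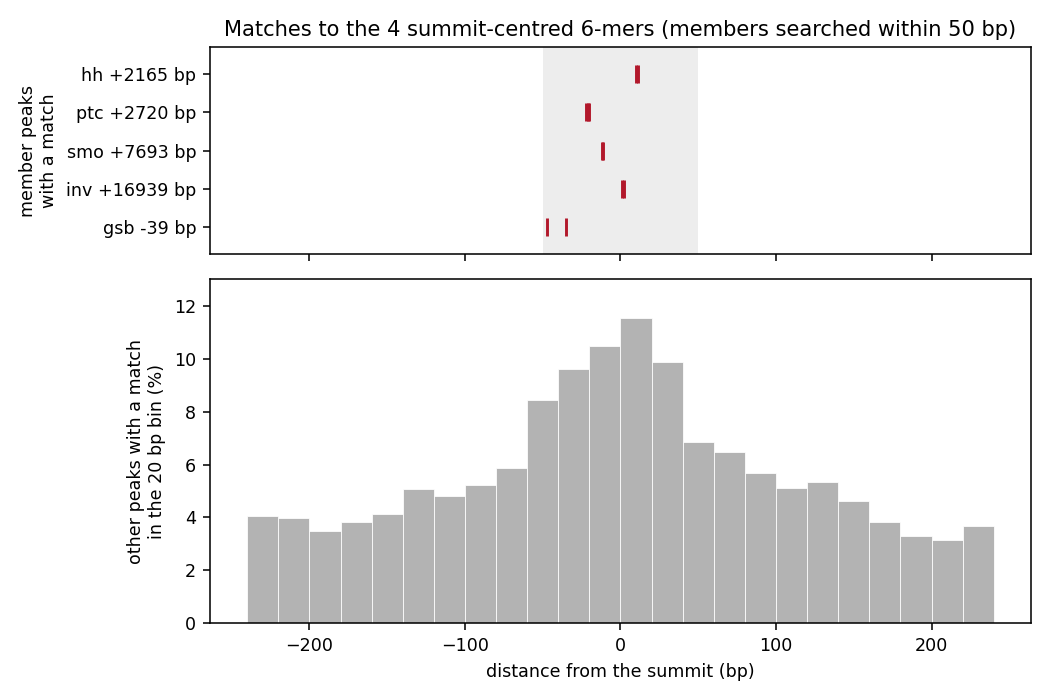
The upper panel marks each match to the 4 6-mers in the 5 member peaks that hold one, by distance from the summit (x, bp), within the 50 bp on each side that were searched; the lower panel gives the share of the 3549 other peaks with a match in each 20 bp bin (y, percent). The share is highest in the bins next to the summit, at 11.5% in the highest bin.

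Known motifs were also searched on both strands within 100 bp of each summit. GAGAG, of the GAGA factor, was in 5 of the 18 member windows and in 34.5% of all peak windows. CGATA, of BEAF-32, was in 3, against 24.8% of all peaks, and the longer DREF motif TATCGATA, which contains it, was in 0, against 1.88%. CAGGTAG, bound by the early activator Zelda, was in 2, the *ptc* intronic site at 8140 bp and the *Acsl* site with a signal of 203, against 1.18% of all peaks and 1.47% of all pooled summits. TAATTA, a homeodomain motif, was in 1, the second summit of the *hh* intronic region, against 13.9% of all peaks. The Ci motif TGGGTGGTC was in none of these windows and in 0.0841% of all peaks.

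The member windows differed in base composition from 23.4 to 59.2% G and C, with a median of 39.8%, against 37.8% for all peaks. The *ptc* promoter had the highest share and the intergenic peak downstream of *inv* the lowest. These values are descriptions of the letters near 18 summits, of which some are neighbours in 1 region.

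The homeodomain gene *inv* (FBgn0001269; 2R, 11474465 to 11509695, plus strand) had 2 peaks in the longest window of the set. One was intronic, 16939 bp downstream of its nearest own start (11492562 to 11492722), with a signal of 286 and ranks of 2952, 1673 and 2349 in replicates 1 to 3. The other was intergenic, 3208 bp past its end (11512829 to 11513038), with a signal of 293 and ranks of 2019, 1882 and 2339. That second site lies between *inv* and *en*, and the nearest start to it was that of *en*, 14980 bp away. The 2 peaks had overlapping rank ranges and were both supported by all 3 replicates.

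*en* (FBgn0000577; 2R, 11524006 to 11528210, minus strand), the paralogue and neighbour of *inv*, had 10 pooled summits and no peak. Its highest summit was intergenic, 1376 bp upstream of the start, with a signal of 122 and ranks of 9483, 2994 and 11940 in replicates 1 to 3. At its promoter, 31 bp upstream, a summit had a signal of 94.0 and ranks of 6210, 25957 and 13934. Only 1 of these 6 ranks was within 3567, that of the upstream summit in replicate 2. The replicate 2 summit nearest to it was 251 bp away. It lay 24 bp from another pooled summit, 1603 bp upstream of the start, with a signal of 80.3.

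*gsb* (FBgn0001148; 2R, 25061964 to 25064643, plus strand) had 1 peak, at its promoter 39 bp upstream of the start (25061705 to 25062144), with a signal of 234. Its ranks were 4989, 2296 and 1630 in replicates 1 to 3, with signals of 82.2, 73.5 and 90.5, and replicate 1 did not support it. In replicate 2 the summit nearest to it ranked 7196, and by that summit only replicate 3 supported the peak. Its neighbour *gsb-n* (FBgn0001147; 2R, 25040383 to 25052331, minus strand) had 11 pooled summits and no peak. The *gsb-n* promoter summit, 329 bp upstream of the start, had a signal of 58.5 and ranks of 17424 in replicate 1 and 14676 in replicate 3, and replicate 2 listed no region there. The highest summit of the *gsb-n* window had a signal of 94.2; it lay between both genes, 4947 bp upstream of *gsb-n* and 4686 bp upstream of *gsb*, and ranked 22092, 15224 and 5145.

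Ordered by their highest signal, the genes ran *ci* (949), *ptc* (941), *hh* (719), *smo* (683, in CG3625), *inv* (293), *gsb* (234), *en* (122) and *gsb-n* (94.2). The rank ranges over the 3 replicates overlapped between *ci* and *ptc*, between *hh* and *smo*, between *inv* and *gsb*, between *gsb* and *en*, and between *en* and *gsb-n*. The overlap of *gsb* and *en* rests on the replicate 2 rank of *en*, 2994. The ranges of *ptc* and *hh* did not overlap, but those of *ci* and *hh* did. Those of *smo* and *inv* were apart, with every replicate placing the *smo* window's peak higher. A lower highest signal was found in 93.1% of protein-coding genes than in *ci*, in 79.3% than in *inv* and in 42.0% than in *gsb-n*.

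**Figure D3:**
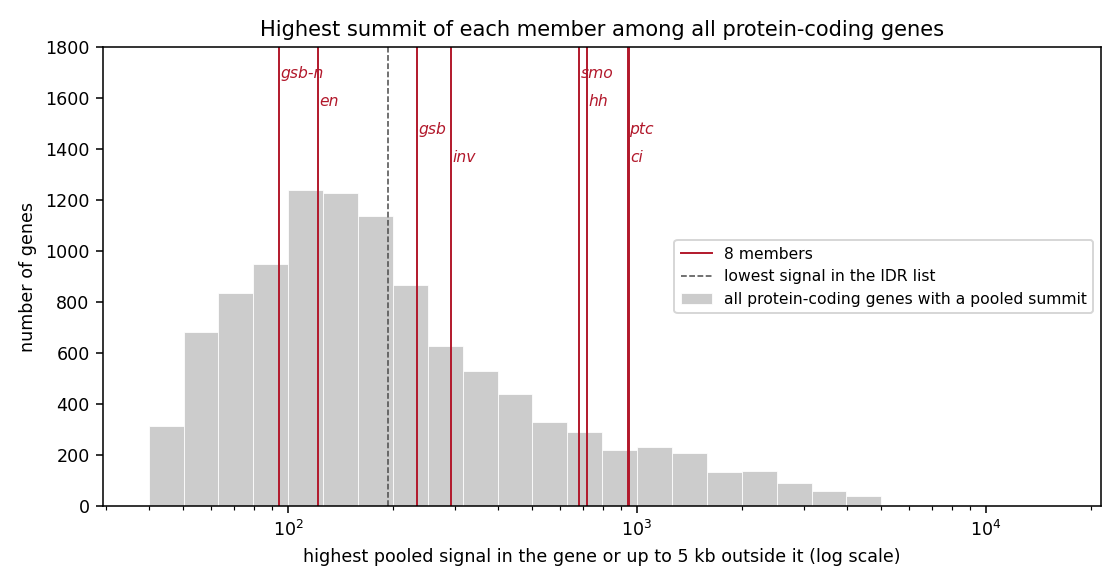
Red lines mark the highest pooled signal in the window of each of the 8 members (x, log scale) and grey bars count the protein-coding genes at each signal (y, number of genes) among the 10625 with a pooled summit in their window; the dashed line is the lowest signal of the IDR list. *hh*, *ptc*, *smo* and *ci* stand between 683 and 949, and *en* and *gsb-n* lie left of the dashed line.

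The genes next to each member in this measure are named without regard to function. *ci* stood between *pnr* (951) and the pair CG15155 and CG17681 (948). *RpS3A*, a ribosomal protein gene near *ci*, shared the same highest summit. *ptc* stood between the pair CG5199 and *atk* (941) and the pair *Reck* and *Sytbeta* (939). *hh* stood between *Sdc* (719) and the genes CG12746, CG14671, CG2931, *Pi4KIIalpha* and *Rheb*, which share a summit of 714.

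The *smo* window stood between CG8813, CG8814, *Ifrd1*, *Prx6a* and *Sbat*, which share a summit, and *luna*, all at 683 to the whole number. *Amnionless*, CG11601 and CG3625 had the same highest summit as *smo*. *inv* was flanked by CG31960 and *bark* above and CG10348 below, all at 293. *gsb* was flanked by *tal-1A*, *tal-2A*, *tal-3A* and *tal-AA*, which share a summit, and by *promL*, all at 234. *en* was flanked by *Oat* above and by CG13295, CG42269, CG6602 and CG6610 below, all at 122. *gsb-n* stood between CG8086 (94.3) and *beat-IIa* (94.2).

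By position, 11 of the 18 member peaks were intronic, 4 were at promoters (within 500 bp of a start), 2 were in non-coding exons and 1 was intergenic. Promoters made up 39.5% of all peaks, introns 36.5%, intergenic positions 20.0% and non-coding exons 1.43%. The promoter peaks were those of *ptc*, *ci*, *gsb* and CG3625. Inside a member gene lay 7 peaks, in *hh*, *ptc*, *ci* and *inv*, and 11 lay outside. No peak of the 8 windows lay in a coding exon, a class that held 0.280% of all peaks.

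All 3 replicates supported 14 of the 18 member peaks, or 77.8%, against 65.3% of all peaks. A further 3 had 2 replicates and 1 had a single one. The IDR list was made from the same replicates, so this describes how the lists relate. The 4 peaks without full support had pooled signals of 203, 208, 234 and 236, the lowest of the 18. This split depends on ranking by the highest overlapping region, which neighbouring summits can share. By the nearest replicate summit, the CG3625 peak with a signal of 324 ranked 4822 in replicate 3. The *Acsl* peak with a signal of 340 ranked 4301 in replicate 2, so by that measure neither had full support. Each of the 18 overlapped a region in every replicate list, and the nearest replicate summit was within 50 bp for 18 of them in replicate 1, 15 in replicate 2 and 17 in replicate 3.

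**Figure D4:**
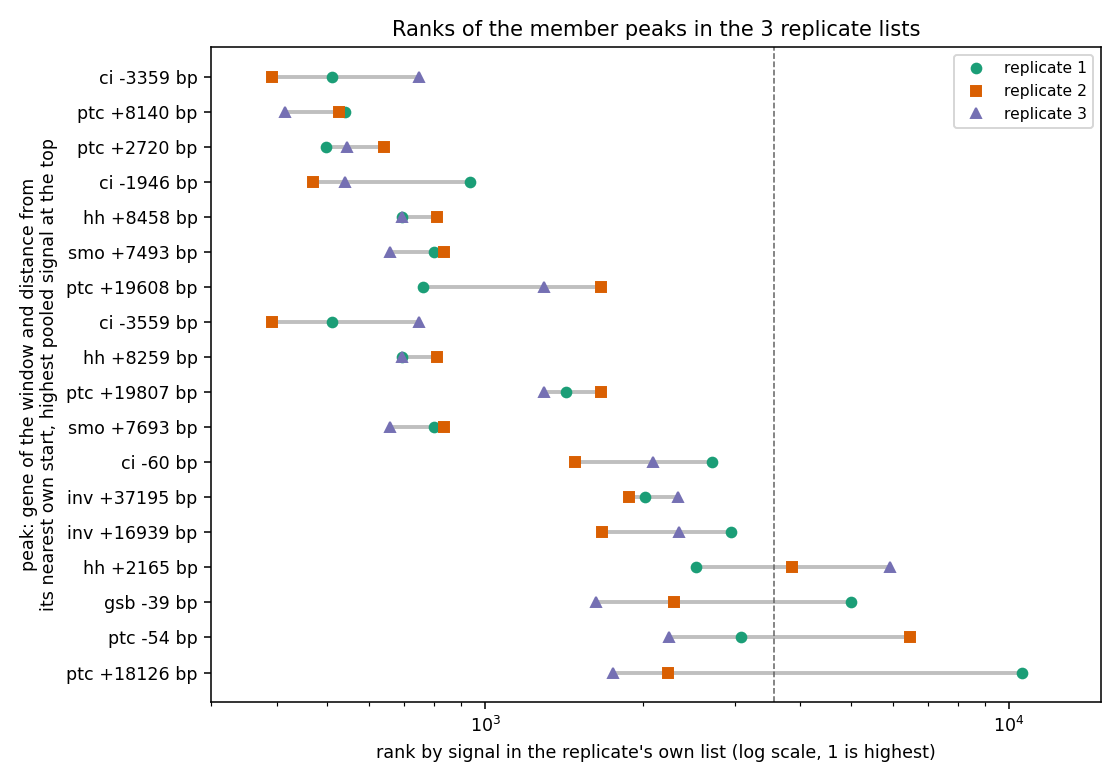
Points give the rank of each of the 18 member peaks in the lists of replicates 1, 2 and 3 (x, log scale, 1 is highest), with peaks ordered by pooled signal from the top (y) and the dashed line at rank 3567; summits that share a region share ranks. The upper 14 peaks lie left of the line in every replicate, and the lowest 4 cross it in 1 or 2 of them.

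Some of the 18 peaks are not separate sites. The summits at 8458 and 8259 bp in *hh*, the 2 in CG3625 and the 2 farthest upstream of *ci* were 199 or 200 bp apart in shared or overlapping regions, and no 2 neighbouring summits anywhere in the pooled list were closer than 199 bp. Another pair, in *Acsl*, was 199 bp apart in separate pooled regions, but both had the same highest overlapping region in replicate 2 and in replicate 3. Counted by overlapping regions of the pooled list, with the *Acsl* pair as separate, the 18 peaks came to 15. The 99 other member summits had a median signal of 62.8, and 46 of them had an overlapping region in all 3 replicate lists.

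Other genes of the pathway were read from lists drawn up from textbook roles. Among 8 genes of Hedgehog production and spread, 5 had a peak in their window. The highest were *dlp* (1274), a glypican, *rasp* (916), the acyltransferase that modifies Hedgehog, *shf* (655), a secreted factor that aids its spread, and *dally* (558), another glypican. Of 13 genes of reception and transduction, 6 had a peak and 11 had any pooled summit. The leading ones were *rdx* (1103), the Cullin adaptor that targets Ci and which had 9 peaks, then the kinase genes *CkIalpha* (994), *sgg* (615) and *Gprk2* (373). The highest summits in the windows of *rasp*, *CkIalpha* and *Gprk2* were at promoters of neighbouring genes, not at their own starts.

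Among 11 further segment polarity genes, 5 had a peak. *arr*, the Wingless co-receptor gene, had the highest signal, 3474, but at the promoter of another gene and 33672 bp from the nearest start of *arr*. The forkhead genes *slp1* (2549) and *slp2* (2061) and the Wingless feedback inhibitor gene *nkd* (2295) followed, all above the highest member signal, 949. In the Pax family, 5 of 8 genes other than *gsb* and *gsb-n* had a peak, with *Poxm* (559), *sv* (346), *ey* (345) and *eyg* (282) the highest. These counts stand beside the 31.4% of all protein-coding genes given above, whose median window was 12166 bp. The lists, in the order given, had longer median windows, of 17406, 16780, 15972 and 22464 bp. Their median highest signals were 434, 125, 191 and 253, against 118 for all genes. The median number of peaks per gene was 1, 0, 0 and 1, against 0 for all genes.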

How the data were processed

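ChIP-seq of zf30C-GFP was read from 5 region lists on dm6: a pooled list, an IDR list and 1 list for each of 3 replicates. The signal value of each region was used as the authors deposited it; not given in the sources used here are its unit, the aligner, the peak caller and the cutoff on IDR. Per the accompanying notes, each list was made with a control alignment, which was not analysed here.

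Summits were placed against the Ensembl release 115 annotation (BDGP6.54) and the Release 6 sequence with Python 3.11.15, pandas 2.3.3 and NumPy 2.4.6. Windows were the gene and 5 kb on each side. A replicate region overlapped a peak by at least 1 bp. A summit's class was promoter if within 500 bp of a start, and otherwise the first that applied of 5' UTR, coding exon, 3' UTR, exon of a non-coding gene, intron and intergenic. With 1 group no test was run. The 3 replicates are separate biosamples of the line, per the labels. Position, support and ranking steps were tested on simulated data.

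The members and gene lists were chosen with earlier results of these data known. Named beside the members were the 4 highest genes of each other list, genes holding or nearest to a member-window summit, and the genes next to each member by highest signal. Alternatives covered window size, list length, support, promoter width and leaving out replicates.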

Additional observations from a re-analysis of the deposited data

How the results depend on the processing

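The 18 member peaks fell to 7 with the gene alone as the window, to 10 with 2 kb outside it and to 10 in the upper 0.5 of the IDR list, and came to 28 when the pooled list was taken to 2 times the IDR list's length. The 117 pooled summits fell to 56 with the gene alone, and the share of all protein-coding genes with a peak to 9.15%. The number of members with a peak ran from 4 to 7 over the alternatives for window, list length and assignment to a start. It was 4 with the gene alone, 5 with 2 kb outside it and 7 with 10 kb. The shares of all protein-coding genes with those windows were 9.15%, 21.3% and 44.2%. For list length and assignment to a start no such share was taken. Support by all replicates held for 14 to 16 peaks when a replicate was left out, and for 11, 17 and 12 with 0.5 or 2 times as many regions and with summits within 100 bp. In all, 21 of 27 alternatives of counts and shares stayed within 1.5 times. Ranks of each member's highest summit were also taken from the nearest replicate summit in place of the highest overlapping region. Of these, 22 of 24 stayed. *inv* came to 2694 in replicate 1. *gsb* came to 7196 in replicate 2, past 3567, which ends that replicate's support of the *gsb* peak. Among the other peaks, the CG3625 peak with a signal of 324 came to 4822 in replicate 3. The *Acsl* peak with a signal of 340 came to 4301 in replicate 2. Both ranks are past 3567 as well. No paired analysis was possible because there was 1 group. Without read counts, what depth limits cannot be told.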
